A study of Homo sapiens with 4 samples.

Results

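The exons described here are skipped exons of 31 to 499 nucleotides (nt) that lie between a short upstream and a short downstream intron, each at most 300 nt long. Of the 39919 skipped-exon events listed for both groups, 1079 events at 1043 exons had this architecture. In each group, 696 of these exons in 496 genes had at least 20 reads that fit only inclusion or only exclusion of the exon, and the other 347 exons did not. For each exon the event with the most such reads was kept. These exons were chosen by length and by the depth of such reads, and the rule used no ψ value and no difference between the groups. An included exon offers more places for such reads than a skipped one, so this depth is not blind to inclusion. The thresholds were chosen with earlier results of these data known. They are set beside all 18682 exons that passed the same read minimum, of which they are a part.

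Total RNA was sequenced from MDA-LM2 cells, a line selected for lung metastasis from the human breast cancer line MDA-MB-231, at 48 h after transfection of small interfering RNAs. The labels list 2 libraries of SNRPB2-silenced cells (siSNRPB2) and 2 of control transfections (siCtrl). The labels give 2 independent SNRPB2 siRNAs and a knockdown above 95% by qPCR, and do not tie a siRNA to a library. The deposited values hold 1 inclusion level per exon and group, so replicate error is unknown for every difference below, and no value has an SD or n.

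An internal human exon is usually recognised as a unit across the exon, since most introns are far longer than exons. Where introns are short and lie in GC-rich sequence, the splice sites can instead be paired across the intron, and such introns are often found unspliced in part of the transcripts. The product of SNRPB2 is U2B'', part of the U2 particle of the spliceosome, which binds the branch point of an intron ahead of the 3' splice site.

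Depth and identity were checked over the whole series first. The exons between short introns had a median of 176 inclusion-only plus exclusion-only reads in siCtrl and 143.5 in siSNRPB2, with ranges of 20 to 23125 and 20 to 16282. SNRPB2 itself had no event, so its level was not analysed here. Of the markers of the MDA-MB-231 lineage, CD44, AXL, LGALS1 and FOSL1 had events with 3779 to 50227 compatible reads in either group, and VIM, MSN and CAV1 had no event. The luminal markers CDH1, EPCAM and GRHL2 had no event and ESR1 had 1 and 10 reads, while KRT8 had 13755 and 11312, and the blood markers PTPRC and CD3E had 51 and 1 reads in siCtrl and 8 and 30 in siSNRPB2.

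The windows of 9 exons with splicing differences described below are shown first, to give the exon and the intron ends beside it. Each line gives the skipped exon in capitals, with the last 60 bases of the upstream intron and the first 20 of the downstream intron in lower case where an annotated transcript runs through that intron. Sequences are from GENCODE release 29 transcripts, coordinates are those of the whole window in hg38, and each is written 5′ to 3′ on the gene's strand. The first 3 exons had lower and the other 6 higher inclusion in siSNRPB2.
PCBP4 (chr3:51959895-51960083, minus strand): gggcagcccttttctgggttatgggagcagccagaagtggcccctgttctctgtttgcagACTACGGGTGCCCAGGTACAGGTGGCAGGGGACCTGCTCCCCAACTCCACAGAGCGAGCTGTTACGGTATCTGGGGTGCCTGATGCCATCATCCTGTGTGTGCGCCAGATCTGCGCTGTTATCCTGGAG
DPH7 (chr9:137564873-137565018, minus strand): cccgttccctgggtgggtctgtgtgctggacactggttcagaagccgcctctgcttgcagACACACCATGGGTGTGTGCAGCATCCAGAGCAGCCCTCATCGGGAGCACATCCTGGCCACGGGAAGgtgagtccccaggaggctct
SAT2 (chr17:7626923-7627104, minus strand): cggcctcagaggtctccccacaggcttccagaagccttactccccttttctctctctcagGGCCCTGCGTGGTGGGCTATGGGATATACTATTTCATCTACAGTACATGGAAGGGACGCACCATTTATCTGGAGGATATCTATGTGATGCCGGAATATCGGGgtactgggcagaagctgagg
GPR137 (chr11:64288065-64288234, plus strand): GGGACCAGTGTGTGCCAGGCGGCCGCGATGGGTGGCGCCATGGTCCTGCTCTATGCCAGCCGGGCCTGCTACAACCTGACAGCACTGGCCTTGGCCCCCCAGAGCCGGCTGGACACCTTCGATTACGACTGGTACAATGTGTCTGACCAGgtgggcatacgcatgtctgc
CENPX (chr17:82019621-82019754, minus strand): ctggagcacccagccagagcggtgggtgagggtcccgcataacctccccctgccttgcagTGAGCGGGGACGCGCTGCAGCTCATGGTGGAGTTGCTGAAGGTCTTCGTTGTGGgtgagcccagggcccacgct
FAM173A (chr16:722024-722154, plus strand): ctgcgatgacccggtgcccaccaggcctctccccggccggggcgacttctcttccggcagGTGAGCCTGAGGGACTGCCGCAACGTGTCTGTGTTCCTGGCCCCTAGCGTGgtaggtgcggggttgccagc
MCRIP2 (chr16:647723-647904, plus strand): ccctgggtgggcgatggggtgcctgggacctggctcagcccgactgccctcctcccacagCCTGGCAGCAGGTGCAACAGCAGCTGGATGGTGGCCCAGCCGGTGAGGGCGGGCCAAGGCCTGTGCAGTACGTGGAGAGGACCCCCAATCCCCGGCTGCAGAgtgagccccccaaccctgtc
TRPT1 (chr11:64224080-64224222, minus strand): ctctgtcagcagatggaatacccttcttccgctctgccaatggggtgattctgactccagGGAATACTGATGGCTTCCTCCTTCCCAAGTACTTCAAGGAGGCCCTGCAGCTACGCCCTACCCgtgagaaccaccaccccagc
BAG6 (chr6:31648911-31648964, minus strand): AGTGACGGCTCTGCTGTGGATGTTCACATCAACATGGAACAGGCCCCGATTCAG
In these windows the share of pyrimidines in the 20 bases before the terminal AG of the upstream intron was 75% at PCBP4, 60% at DPH7 and 95% at SAT2. At the exons with higher inclusion it was 75% at CENPX, 60% at FAM173A, 80% at MCRIP2 and 50% at TRPT1. The ranges of both groups overlap. Intron sequence was at hand for 371 upstream and 317 downstream introns, too few (53.3% of upstream introns) for a comparison over all exons. Of these, 365 upstream and 313 downstream introns began with GT and 6 and 4 with GC, and every one ended in AG.

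Several features of these exons were not used in their selection. The median exon GC content was 58.6%, against 49.2% over all tested exons, with a value for 97.7% and 96.5% of exons. Their median length of 117 nt was near the 121 nt of all tested exons. By the rule introns were short: upstream introns had a median of 164 nt (2189.5 nt over all tested exons) and downstream introns 150.5 nt (2038 nt). The shortest flanking intron had 62 nt and the longest exon 470 nt. The shortest pair, with 69 nt upstream and 70 nt downstream, flanks a coding exon of CSNK1G2, a casein kinase, whose inclusion level was 1.00 in both groups. It is shown for its short introns.
CSNK1G2 (chr19:1979103-1979248, plus strand): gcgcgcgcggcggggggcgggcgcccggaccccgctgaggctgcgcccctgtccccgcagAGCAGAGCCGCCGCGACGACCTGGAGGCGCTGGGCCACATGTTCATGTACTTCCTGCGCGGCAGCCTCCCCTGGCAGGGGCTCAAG
The share of these exons differed between chromosomes. Chromosome 17 held 13.9% of them against 6.52% of all tested exons, and chromosome 19 held 10.2% against 6.21%. Chromosome 11 held 9.77% against 6.64% and chromosome 16 held 8.33% against 5.05%. Other chromosomes held less than their share, such as chromosome 22 with 0.718% against 1.92% and chromosome 20 with 2.01% against 2.55%. By position, 576 (82.8%) lay in coding sequence, 22 (3.16%) in a 5' UTR, 11 in a 3' UTR, 71 in non-coding transcripts and 16 matched no annotated exon. The 5' UTR share over all tested exons was 7.82%. Skipping was annotated for 677 exons (97.3%), and 269 (38.6%) had a length that is a multiple of 3, against 41.8% of all tested exons.

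Their short introns were often part of a longer exon in another annotated transcript. This held for 53.3% of upstream and 45.5% of downstream introns, and for both introns of 157 exons, against 10.3% and 10.3% over all tested exons. Members also crowded together. A total of 354 genes held 1 such exon and 142 held more, up to the 5 of CIRBP, a cold-inducible RNA-binding protein. Of the 696 exons, 218 overlapped another and 245 shared an intron with another, and 451 did neither. Overlapping exons share reads and are not independent measurements.

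Inclusion is given as ψ (inclusion level), the fraction of transcripts with the exon as estimated by MISO, with the interval that the authors deposited. The exons were mostly included: the median ψ was 0.935 in siCtrl and 0.92 in siSNRPB2, against 0.82 and 0.81 over all tested exons. In both groups ψ was at least 0.95 for 264 exons and at most 0.05 for 49, and 129 lay between 0.2 and 0.8. The median ψ interval was 0.075 wide in siCtrl and 0.09 in siSNRPB2. The median difference between the groups was 0, as it was over all tested exons.

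An exon was called different where the authors' deposited table gave a Bayes factor (the evidence for a difference over that for none) of 10 or more and ψ differed by 0.1 or more. By this rule 46 exons (6.61%) were called lower in siSNRPB2 and 46 (6.61%) higher, in 76 genes. Over all tested exons the shares were 7.61% lower and 7.13% higher, so both shares of the exons between short introns lay near the background. Differences ran from -0.73 to -0.11 among lower calls and from 0.10 to 0.68 among higher calls. Of the exons not called, 29 passed the Bayes factor but not the difference, and 85 had the difference but not the Bayes factor. The scatter of ψ shows calls on both sides of the diagonal.

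**Figure D1:**
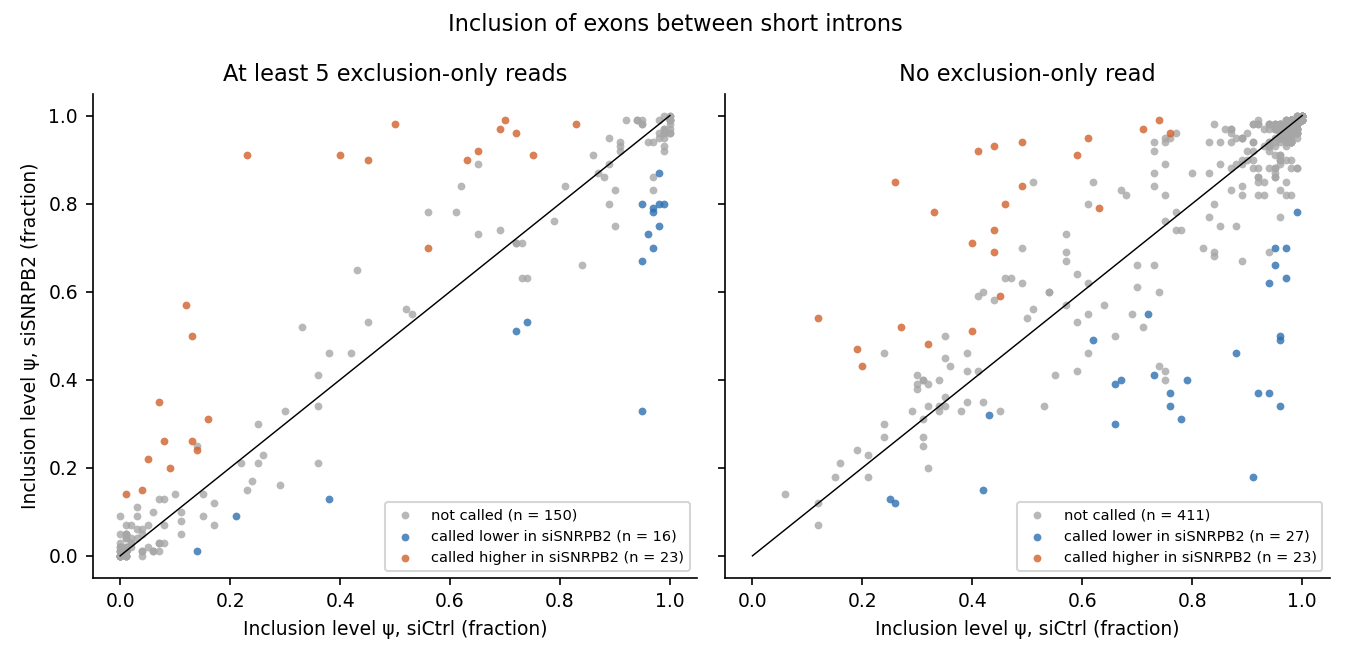
Inclusion level ψ of each exon between short introns, siCtrl on the horizontal and siSNRPB2 on the vertical axis (fractions), split by reads across the skipping junction. Of 189 exons with at least 5 exclusion-only reads (left) 16 were called lower and 23 higher, and of 461 exons with none (right) 27 and 23. The diagonal marks equal ψ, and the 46 exons with 1 to 4 such reads are not drawn.

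Most of these exons had no direct evidence of skipping. Not a single exclusion-only read, one that joins the flanking exons directly, was counted in either group for 461 of 696 exons (66.2%, against 51.1% of all tested exons). In these exons ψ rests on the balance of reads between the exon and its neighbours, and they gave 50 of the 92 calls. The 50 are 10.8% of the 461 exons, near the 11.4% called among the 9550 such exons of all tested. At least 5 exclusion-only reads over both groups were counted for 189 exons, of which 16 (8.47%) were called lower and 23 (12.2%) higher in 36 genes. With the same rule, 10.0% of all tested exons were called lower and 9.14% higher. Among the 39 calls with such reads, 26 exons (66.7%) had a length divisible by 3, as against 47 of 150 (31.3%) of the exons with such reads that were not called. Over all tested exons the same shares were 49.0% and 43.5%. Among calls without an exclusion-only read the share was 48.0%, against 38.0% of those not called, and among the 51 exons that passed the read test below it was 45.1%.

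Of the named exons with junction reads, PCBP4 differed most. It is a poly(C)-binding protein of the hnRNP K family. Its 129-nt coding exon had a ψ of 0.95 (interval 0.86 to 1.00) in siCtrl and 0.33 (0.26 to 0.42) in siSNRPB2. Inclusion-only reads were 192 in siCtrl and 83 in siSNRPB2, and exclusion-only reads 1 and 20, so skipping reads came almost wholly from siSNRPB2. The 60-nt exon of ASL, the argininosuccinate lyase of the urea cycle, had a ψ of 0.95 (0.88 to 0.99) and 0.67 (0.57 to 0.77). It had 2 exclusion-only reads in siCtrl and 23 in siSNRPB2, and a readthrough transcript annotated on the same strand shares it.

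In DPH7, which acts in the synthesis of diphthamide on elongation factor 2, ψ was 0.97 in siCtrl and 0.70 in siSNRPB2, with 0 and 7 exclusion-only reads. SAT2, a diamine acetyltransferase family member, had 0.96 and 0.73, with 2 and 9 such reads. STK16, a Golgi-associated kinase, had 0.99 and 0.80, with 0 and 25 reads. Each of these exons was close to fully included in siCtrl. ATP13A2, a lysosomal polyamine transporter, had 0.74 and 0.53 with 0 and 11 exclusion-only reads. Non-coding parts of mRNAs were also among the lower calls: ψ was 0.38 and 0.13 for a 3' UTR exon of MMAB, an enzyme of vitamin B12 metabolism, and 0.97 and 0.78 for a 5' UTR exon of AMIGO2, an adhesion molecule. HERC2P9 (0.98 and 0.75) and GOLGA2P10 (0.72 and 0.51) are pseudogenes with near-identical relatives, and their reads are uncertain.

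Among higher calls with at least 50 informative reads (inclusion-only plus exclusion-only) in each group and at least 5 exclusion-only reads, GPR137 differed most. The 150-nt exon of GPR137, a multi-pass membrane protein, had a ψ of 0.50 (0.42 to 0.60) in siCtrl and 0.98 (0.93 to 1.00) in siSNRPB2. Its exclusion-only reads were 35 in siCtrl and 0 in siSNRPB2. CENPX, a histone-fold protein of centromeres and of the Fanconi anaemia pathway, had 0.12 (0.09 to 0.16) and 0.57 (0.49 to 0.64). Its reads differed in both classes, with 42 inclusion-only and 116 exclusion-only reads in siCtrl and 158 and 60 in siSNRPB2. PRKAG1, a regulatory subunit of AMP-activated kinase, had 0.45 and 0.90 for an exon of 38 nt, with 19 and 0 exclusion-only reads.

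FAM173A, a mitochondrial lysine methyltransferase, had a ψ of 0.70 in siCtrl and 0.99 in siSNRPB2, with 35 and 0 exclusion-only reads. MCRIP2 had 0.69 and 0.97 (27 and 2 reads), and TRPT1, a tRNA 2'-phosphotransferase, 0.65 and 0.92 (15 and 0 reads). In BAG6, a chaperone for membrane proteins, the 54-nt exon had 0.72 and 0.96, with 36 and 3 reads. In GPR137, FAM173A, PRKAG1 and TRPT1 the skipping reads of siCtrl were thus at 0 in siSNRPB2, and a count of 0 allows up to 3 reads. Mostly skipped exons were also higher: CCT2, a subunit of the TRiC chaperonin, had 0.08 and 0.26, and a 5' UTR exon of MRPL55, a mitochondrial ribosomal protein, 0.05 and 0.22. SGK1, a serum- and glucocorticoid-induced kinase, had 0.75 and 0.91 with 28 and 9 exclusion-only reads.

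**Figure D2:**
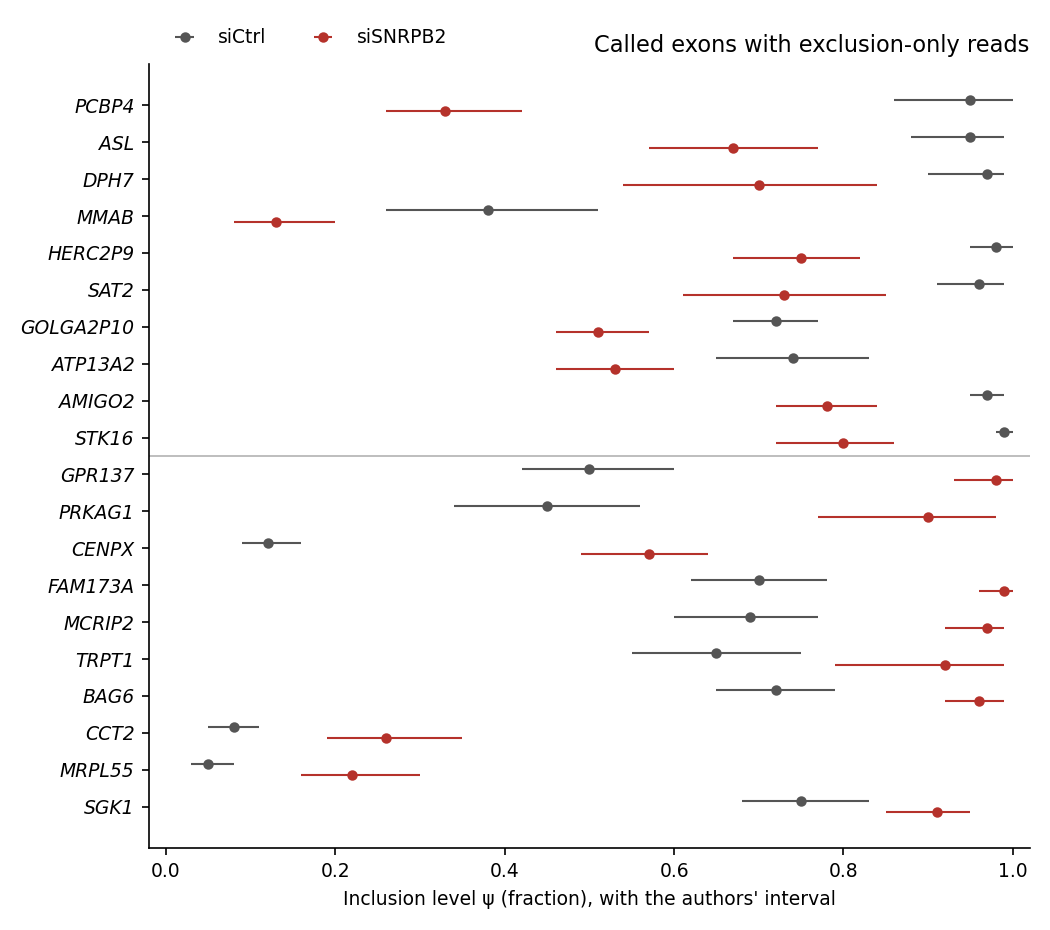
Inclusion level ψ (horizontal axis, fraction) of the 20 called exons with the largest differences, at least 50 informative reads in each group and at least 5 exclusion-only reads. Points are the authors' estimates and bars their deposited intervals, in siCtrl (grey) and siSNRPB2 (red). PCBP4 stands at 0.95 in siCtrl and 0.33 in siSNRPB2, and CENPX at 0.12 and 0.57.

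The reads that fit only 1 isoform were also compared with a two-sided Fisher's exact test, adjusted by Benjamini-Hochberg over all 18682 tested exons, which compares these sets of reads and not the conditions. Where adjusted p was under 0.05 and the share of inclusion-only reads differed by 0.1 or more, 20 exons were lower and 31 higher in siSNRPB2, against a background of 5.28% lower and 5.27% higher. In the same direction as a ψ call were 23 of these, 6 of the 46 exons called lower and 17 of the 46 called higher. Most ψ calls, and most lower calls above all, thus did not pass the read test. Of the exons with exclusion-only reads named above, DPH7, SAT2, GOLGA2P10, ATP13A2, AMIGO2 and SGK1 did not pass. At ATP13A2 the share of inclusion-only reads was 1.00 in siCtrl and 0.955 in siSNRPB2. By this exact test the adjusted p was 2.14e-16 at CENPX, 1.62e-09 at GPR137, 1.95e-09 at STK16, 9.66e-08 at PCBP4, 1.02e-08 at FAM173A and 3.68e-05 at ASL. These p-values take reads as independent. In 220 of the exons between short introns with ψ of at least 0.95 in both groups and no exclusion-only read, inclusion-only and flanking reads differed between the groups with a median chi-square 9.34 times what independent reads give (9.94 times in 4582 such exons of all tested). With reads divided by the factor of all tested exons, 0 of the 696 exons passed Fisher's exact test after adjustment and 4 had an unadjusted p under 0.05. The factor was taken between the same groups, so any difference between them enters it, and it comes from other classes of reads. Division also leaves few exclusion-only reads per exon, so little could pass. That none passed is therefore not read as a lack of differences. With undivided reads, 90 had an adjusted and 122 an unadjusted p under 0.05.

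Calls without any exclusion-only read included large differences in ψ as well. GATD1, PREB, MAN2A2 and TELO2 were lower. GATD1 had a ψ of 0.92 in siCtrl and 0.37 in siSNRPB2, while its inclusion-only reads were 162 and 122 and the reads that fit both isoforms 93 and 220. PREB, the exchange factor that starts COPII coat assembly, had 0.78 and 0.31, with 177 and 56 inclusion-only and 1098 and 893 shared reads. In MAN2A2, a Golgi mannosidase, ψ was 0.96 and 0.50, and in TELO2, a co-chaperone of phosphatidylinositol kinase-like kinases, 0.97 and 0.63. QARS, GPS2, TGFB1I1 and ERAL1 were higher. QARS, the glutaminyl-tRNA synthetase, had 0.26 and 0.85, with 51 and 136 inclusion-only reads. GPS2, a subunit of the NCoR corepressor complex, had 0.41 and 0.92, TGFB1I1, a focal adhesion adaptor, 0.33 and 0.78, and ERAL1, a mitochondrial ribosome assembly factor, 0.49 and 0.84. A readthrough transcript also covers the GPS2 exon. Of the 50 calls of this kind, 25 exons overlapped another exon of the set.

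Of 13 genes with more than 1 called exon, 10 had called exons that overlap and 12 had all calls in 1 direction. The exception was CIRBP, in which forms of an exon that start at the same place had different values. The form that ends at position 1271246 of chromosome 19 had a ψ of 0.99 in siCtrl and 1.00 in siSNRPB2. Forms extended to 1271365 and 1271467 had 0.71 and 0.97, and 0.59 and 0.91, and were called higher. The exon from 1271329 to 1271467 had 0.26 and 0.12 and was called lower, so the reads of this locus count toward calls in both directions. The called CIRBP exons had no exclusion-only read.

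Some exons were spliced in at intermediate levels in both groups with ample reads of both kinds. BRD2, a BET-family chromatin reader, had a ψ of 0.53 (0.49 to 0.57) in siCtrl and 0.55 (0.50 to 0.59) in siSNRPB2, with 107 and 130 exclusion-only reads. CHD3, a remodeller of the NuRD complex, had 0.42 (0.37 to 0.47) and 0.46 (0.41 to 0.50), with 110 and 113. For both genes the intervals overlap. CDCA3, a cell-cycle protein, had 0.73 and 0.71, and a 5' UTR exon of PSMC5, a proteasome ATPase, 0.25 and 0.21. SLCO4A1, an organic anion transporter, was called higher at 0.56 and 0.70.

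Sorted by function, no list held more than 5 called exons. Over all tested exons 7.61% were called lower and 7.13% higher, and lists of 5 to 24 exons are too small to set apart from these shares. The 8 gene lists left 555 exons in no list. Among splicing factors, 1 of 22 exons was called lower (PCBP4) and 4 higher, which are overlapping pairs in TAF15 (ψ 0.44 in siCtrl and 0.74 in siSNRPB2 for the longer form, no exclusion-only read) and RBM3 (0.16 and 0.31 for the shorter form, with 222 and 130 exclusion-only reads). TAF15 and RBM3 are RNA-binding proteins, the latter induced by cold like CIRBP. Exons of the spliceosome proteins PRPF8 and PRPF19 and of U2AF1L4 and SRSF7 were not called. Of 24 exons of transcription and chromatin genes, HDAC7, a class II histone deacetylase, was called lower (0.14 and 0.01, with 46 and 0 inclusion-only reads) and EHMT2, a histone H3 lysine methyltransferase, higher (0.09 and 0.20).

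Replication, repair and cell-cycle genes had 2 of 20 exons called, both lower: CDC25B, a phosphatase that activates cyclin-dependent kinases (0.98 and 0.87, with 3 and 24 exclusion-only reads), and MCM4, a helicase subunit (0.25 and 0.13, with none). Of 15 cytoskeleton and adhesion exons, 1 was called lower, in the 3' UTR of PXN, the focal adhesion adaptor paxillin (0.97 and 0.67). PXN had 0 exclusion-only reads in siCtrl and 1 in siSNRPB2. FLNA, the actin crosslinker filamin A, had up to 20311 compatible reads for an exon at 0.36 and 0.43, below the minimum difference. None of the FLNA reads was exclusion-only. LAMA5, a laminin chain, was the 1 call among 5 extracellular matrix exons (0.74 and 0.99, with no exclusion-only read). QARS was the 1 call among 17 translation exons, and ACADVL, an enzyme of fatty acid oxidation, the 1 among 24 metabolic exons (0.76 and 0.96). Both lacked exclusion-only reads. Of 14 trafficking and lysosome exons SGSH, a lysosomal sulfamidase, was called lower (0.86 and 0.45) and AP5Z1, an adaptor subunit, higher (0.19 and 0.47). SGSH had 2 exclusion-only reads in siCtrl and 0 in siSNRPB2, and AP5Z1 had none. In the lists the median ψ difference lay between -0.005 and 0.005, next to the 0 of all tested exons.

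The other readout was reads that fit neither isoform, taken per read compatible with at least 1 of them. Such reads may lie within the introns of the event, join its exons to places outside it or have other origins. They are thus not a pure measure of unspliced RNA. Per compatible read, the median exon between short introns had 0.50 such reads in siCtrl and 0.538 in siSNRPB2, with a range from 0.0206 to 13.0 in siCtrl. This was less than the 1.01 and 1.13 of all tested exons and the 3.59 and 4.66 of 1093 exons between introns of at least 10000 nt each, which offer far more sequence for such reads. Per nt of intron relative to compatible reads per nt of exon, the median density ratio stood in the opposite order. It was 0.652 and 0.709 for exons between short introns and 0.0938 and 0.106 over all tested exons. Between the long introns it was 0.0316 and 0.0412. Intron length, on which these exons were chosen, is the divisor of this ratio, so for equal reads short introns raise it. The order is therefore not a result apart from the selection.

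**Figure D3:**
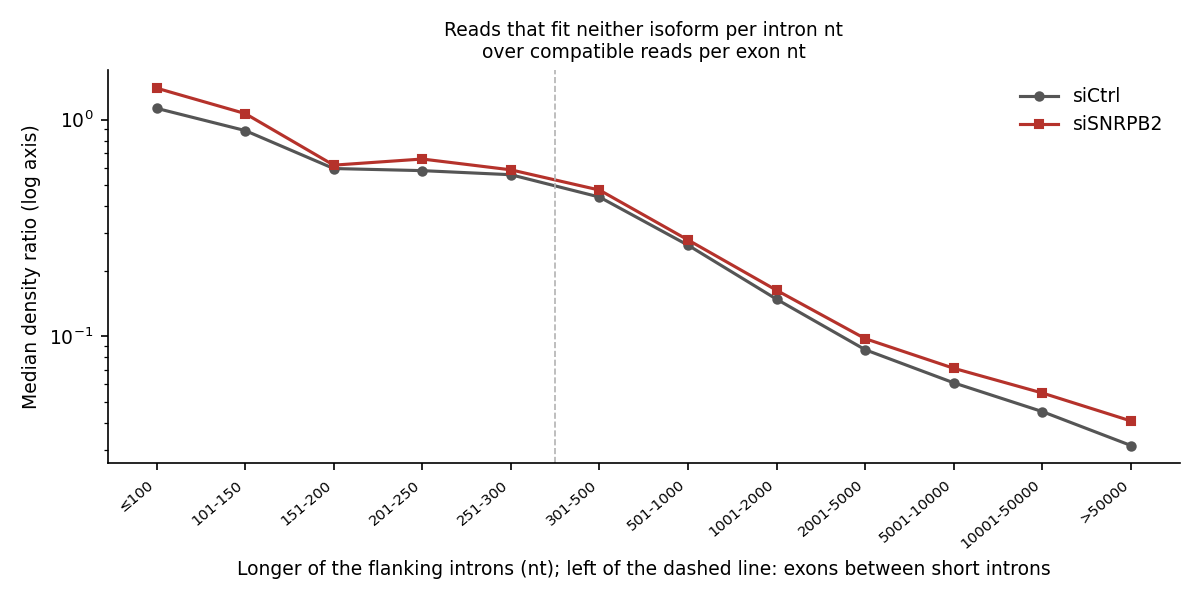
Median density ratio (vertical log axis), reads that fit neither isoform per nt of intron over compatible reads per nt of exon, by the longer of the flanking introns (horizontal axis, nt), in siCtrl (grey circles) and siSNRPB2 (red squares). In siCtrl it was 1.13 where the longer intron had at most 100 nt, 0.556 above 250 nt and up to 300 nt and 0.0313 above 50000 nt. Exons right of the dashed line are the other tested exons of 31 to 499 nt. Intron length is also the divisor of the ratio, so the slope is in part built in.

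Within the set the density ratio, which has intron length as its divisor, varied with intron length, and both measures varied with annotation and neighbouring exons. The density ratio was 1.13 in siCtrl for the 52 exons whose longer intron had at most 100 nt and 0.556 for the 193 exons with over 250 nt. The median number per compatible read showed no steady trend with length. It was 0.477 in siCtrl at up to 100 nt, 0.358 above 150 and up to 200 nt and 0.521 above 250 nt. By annotation, the median number of reads that fit neither isoform per compatible read was 0.370 in siCtrl for the 242 exons with neither intron inside another transcript's exon. It was 0.508 for the 220 exons with 1 such intron and 0.584 for the 234 with both, and the density ratio was 0.541, 0.676 and 0.747. The number per compatible read was also 0.741 where the shorter flanking exon was under 75 nt, 0.484 from 75 nt to under 150 nt and 0.248 at 150 nt or more, while the density ratio ran over a narrower range, at 0.773, 0.617 and 0.579. Reads that run past a short flanking exon into the next one count as fitting neither isoform, and their part in these values was not tested.

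A few exons had far more such reads than compatible ones. At KLHDC2, a substrate receptor of a ubiquitin ligase, 10331 reads fit neither isoform in siCtrl and 7737 in siSNRPB2, against 1760 and 1487 compatible reads, and the density ratio was 68.0 and 60.3. The KLHDC2 event overlaps an exon of NEMF on the opposite strand, whether strand was used in counting is not given in the sources used here, and the part of NEMF reads in this value was not tested. The next densest in siCtrl, among exons with at least 100 compatible reads in each group, were PXN (12.6 and 9.52), RPS27, a ribosomal protein with processed pseudogenes (7.40 and 7.06), GCDH, glutaryl-CoA dehydrogenase (7.02 and 6.15), and ETV1, an ETS transcription factor (6.75 and 4.19). These 5 were chosen for high values in siCtrl, so the direction of their differences is not read.

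Between the groups, reads that fit neither isoform differed little in the median. The median log2 ratio of siSNRPB2 over siCtrl, per compatible read and with 0.5 added to each read number, was 0.07 (quartiles -0.29 and 0.43). It was 0.13 over all tested exons, so relative to these the exons between short introns stood at -0.058. It was 0.08 over 3121 exons with 1 such short intron and 0.33 between the long introns. The ratio was above 0 at 388 of the 696 exons (55.7%), against 61.8% of all tested exons and 76.7% between the long introns. Summed over the exons between short introns, the reads gave 0.349 per compatible read in siCtrl and 0.352 in siSNRPB2.

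**Figure D4:**
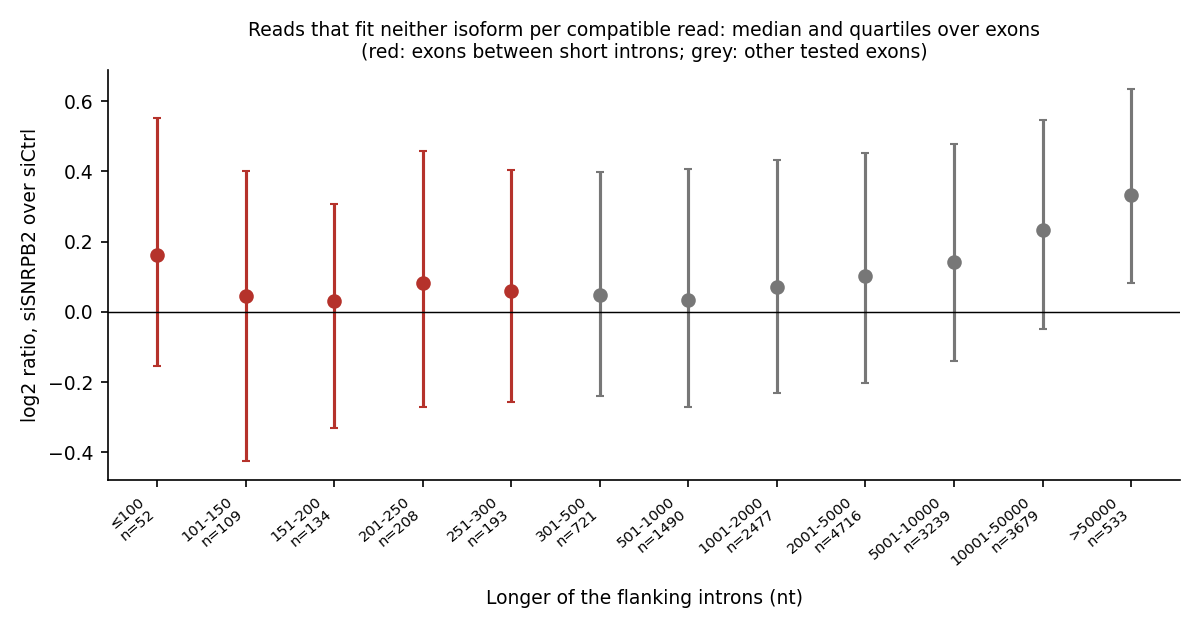
Log2 ratio, siSNRPB2 over siCtrl, of reads that fit neither isoform per compatible read (vertical axis), by the longer of the flanking introns (horizontal axis, nt, with the number of exons). Points are medians and bars the quartiles over exons, red for exons between short introns and grey for other tested exons of 31 to 499 nt. Red medians lie between 0.03 and 0.16, and grey medians reach 0.33 above 50000 nt.

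Across intron length the medians of the exons between short introns ran from 0.03 above 150 and up to 200 nt to 0.16 at no more than 100 nt, with quartiles on both sides of 0 in every length class. Among longer introns the median was 0.04 above 500 and up to 1000 nt, 0.14 above 5000 and up to 10000 nt, 0.23 above 10000 and up to 50000 nt and 0.33 above 50000 nt. The median was 0.05, 0.07 and 0.09 for exons with 0, 1 and 2 introns inside another transcript's exon. It was -0.01 in the third of the exons with the most inclusion-only plus exclusion-only reads and 0.13 in each of the others, so depth moved with it, and the part of depth was not tested.

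Of 693 exons with at least 40 reads that fit neither isoform, 43 (6.2%) were at least 2-fold lower in siSNRPB2 and 69 (9.96%) at least 2-fold higher. Over all tested exons 2.53% were lower and 7.36% higher. The exons between short introns also had fewer such reads to count, with a median of 297 in siCtrl and 249 in siSNRPB2 against 618 and 607 over all tested exons, and the part of this in the wider spread was not tested. The lower exons lay in 39 genes and the higher in 61. A 95% interval for counting error left out a log2 ratio of 0 at 110 of the 112 exons. It covers counting error only and takes reads as independent.

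**Figure D5:**
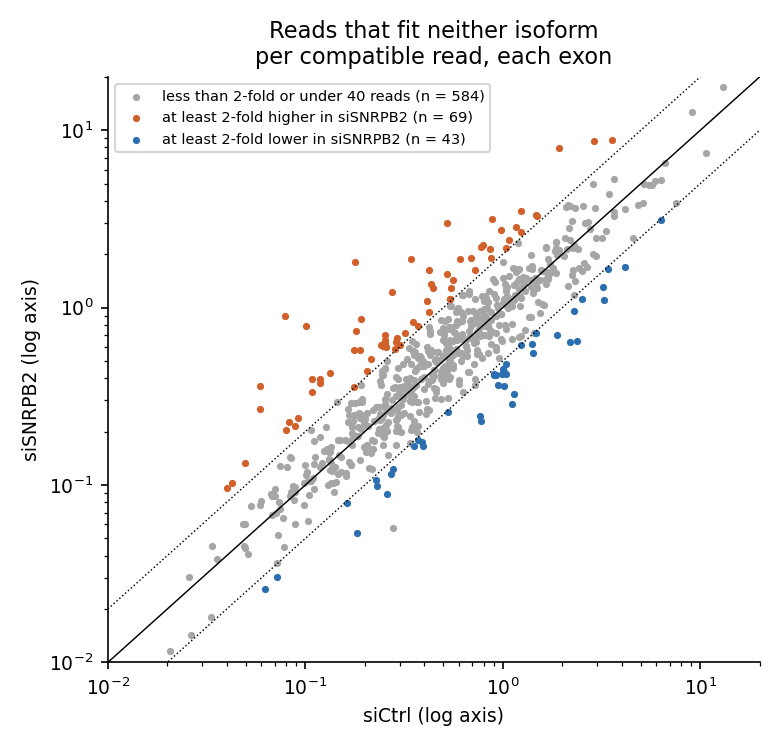
Reads that fit neither isoform per compatible read for each of the 696 exons between short introns, siCtrl on the horizontal and siSNRPB2 on the vertical axis (both log). The solid line marks equal values and the dotted lines 2-fold. Coloured points are the 69 exons at least 2-fold higher and the 43 at least 2-fold lower in siSNRPB2 with at least 40 such reads over both groups.

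Among the exons with at least 100 reads of each kind over both groups, RAPGEF3 was the highest. RAPGEF3, a cAMP-activated exchange factor for Rap, had 16 such reads per 90 compatible reads in siCtrl and 90 per 50 in siSNRPB2, a log2 ratio of 3.30 (95% counting interval 2.39 to 4.2), and an antisense exon is annotated there. SREBF1, the transcription factor of sterol and fatty acid synthesis, had 25 per 248 and 84 per 106, a log2 ratio of 2.95 (2.23 to 3.67), while its ψ was 0.94 in both groups. FDXR, which passes electrons to mitochondrial cytochrome P450 enzymes, had 65 per 124 and 69 per 23 (2.49). In FDXR the reads that fit neither isoform were nearly equal, and the compatible reads differed. HIPK3, a nuclear kinase, had 28 per 473 and 246 per 919 (2.16).

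ZFAND2B, a proteasome-associated zinc finger protein, had 94 reads per 341 in siCtrl and 155 per 126 in siSNRPB2 (2.15), and its ψ of 0.88 and 0.46 was called lower, without reads of exclusion. COMMD4 followed with a log2 ratio of 2.02, ABCA2, a lipid transporter, with 1.94, and LTBP3, a binding protein of latent TGF-beta, with 1.88. In ABCA2, COMMD4 and FDXR the compatible reads in siSNRPB2 were under 40. The SREBF1 window is shown as an example of a coding exon whose inclusion was equal while these reads differed.
SREBF1 (chr17:17814595-17814807, minus strand): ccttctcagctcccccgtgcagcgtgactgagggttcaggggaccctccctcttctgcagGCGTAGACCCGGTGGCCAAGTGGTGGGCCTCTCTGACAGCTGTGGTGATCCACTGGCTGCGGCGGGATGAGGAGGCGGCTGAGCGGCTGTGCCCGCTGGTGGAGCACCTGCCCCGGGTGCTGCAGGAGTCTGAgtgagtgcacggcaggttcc

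On the lower side, ATPAF2, an assembly factor of ATP synthase, had 200 reads per 84 compatible reads in siCtrl and 89 per 138 in siSNRPB2, a log2 ratio of -1.88 (95% counting interval -2.41 to -1.35). SIRT7, a nucleolar deacylase, had 476 per 218 and 190 per 297 (-1.77, -2.12 to -1.42), while its ψ was 0.99 in both groups. AAAS, a nuclear pore protein, had 120 per 655 and 36 per 669 (-1.75), with a ψ of 0.32 and 0.20 that was not called. NBEAL2, a protein of platelet granules, had a log2 ratio of -1.73, TRIP6, a LIM protein of the zyxin family, -1.64, and RIPOR1 -1.54. The TRIP6 event holds the microRNA gene MIR6875, and the RIPOR1 event overlaps an antisense exon. PLPP5, a lipid phosphatase, had -1.78 and MMAB -1.54. The SIRT7 window is shown beside SREBF1 as the opposite case, and its downstream intron begins with gc.
SIRT7 (chr17:81917810-81918027, minus strand): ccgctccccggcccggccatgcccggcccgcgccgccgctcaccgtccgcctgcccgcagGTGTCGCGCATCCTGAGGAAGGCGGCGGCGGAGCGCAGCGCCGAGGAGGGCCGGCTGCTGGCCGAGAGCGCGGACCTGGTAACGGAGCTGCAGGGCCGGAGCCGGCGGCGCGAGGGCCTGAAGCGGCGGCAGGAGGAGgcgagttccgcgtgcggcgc

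At most events no exon of another gene, and no small RNA gene on the same strand, lay between the flanking exons. A small RNA gene lay inside 23 of the events, of which none was called by ψ, 44 overlapped an exon on the opposite strand and 35 an exon of another gene on the same strand. At the 597 exons with none of these, the median log2 ratio was 0.09, and 42 were called lower and 42 higher by ψ. In reads that fit neither isoform, 39 of them were at least 2-fold lower and 62 at least 2-fold higher. Over all tested exons 7.61% were called lower and 7.13% higher by ψ, and 2.53% and 7.36% were past 2-fold lower and higher. The 23 events with a small RNA gene are too few to set apart from these shares.

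Being called by ψ and being past 2-fold in reads that fit neither isoform coincided at about the background share. Of the 91 exons called by ψ with at least 40 such reads, 15 (16.5%) were past 2-fold, as were 97 of the 602 not called (16.1%). Over all tested exons these shares were 10.7% and 9.75%. Among exons called lower 4 were lower and 4 higher in these reads, and among those called higher 7 were higher and 0 lower. The median log2 ratio was -0.08 at exons called lower, 0.07 at those called higher and 0.08 at those not called. PCBP4 was lower in ψ and had 44 such reads per 371 in siCtrl and 135 per 342 in siSNRPB2 (1.72). FAM173A (1.62), GPR137 (1.21) and TRPT1 (1.16) were higher in both, STK16 was lower in ψ and higher in these reads (1.30), and GATD1 was lower in both (-1.30).

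The exons nearest the length limit were as follows. Just inside were exons of AAAS, with a 300-nt upstream intron and a ψ of 0.97 in both groups, and of SPNS1, a lysosomal lipid transporter, with a 299-nt downstream intron and 0.97 and 0.86. Just outside, with introns of 301 nt, were exons of NCOA4, the ferritin autophagy receptor (0.99 and 0.99), and DDX11, a DNA helicase (0.98 and 0.98). None of the 4 was called.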

How the data were processed

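Total RNA reads from a stranded kit (per the labels' protocols) were mapped by the authors with STAR 2.7 on hg38; both names come from the submitters' processing notes. The authors estimated ψ, a fraction, with MISO (per the file headers). They deposited it with an interval, with read numbers per class of compatibility, and with a comparison table that holds the Bayes factor as a ratio. The sources used here do not give the MISO version, the level of the interval, strand and duplicate handling, or if a group's libraries were pooled.

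Exons were mapped to GENCODE release 29 by position. Reads that fit neither isoform per compatible read were compared as a log2 ratio after adding 0.5 to both read numbers. The members, the 8 gene lists, the thresholds and the rule for named exons were chosen with earlier results of these data known. Up to 10 called exons per direction were named by the size of their ψ difference (50 or more informative reads per group, 5 or more exclusion-only reads), up to 4 without exclusion-only reads, up to 6 at intermediate ψ, 8 per direction by the ratio (at least 100 reads of each kind over both groups), 5 by density in siCtrl (at least 100 compatible reads per group), and up to 3 per list. The exons named as called, by the ratio and by density were limited to 1 per gene. Fisher's test of the reads was checked on simulated reads drawn independently at the real depths. That check cannot show how the test does where reads spread more than independent reads, as inclusion-only and flanking reads did between the groups here. Thresholds, read minimum, intron maximum and choice of event were varied 1 at a time. Computation used Python 3.11.15 with scipy 1.17.1, pandas 2.3.3 and numpy 2.4.6, and plots used matplotlib 3.10.9. Some items are not reported here.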

Additional observations from a re-analysis of the deposited data

How the results depend on the processing

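Over 62 alternatives, 37 values kept their direction and stayed within 1.5 times the reported count or, for medians, within the interval of the median. The median ψ difference was 0 wherever it was recomputed. Most moves came with another set of exons or another threshold, which alone changes a count. With an intron maximum of 200 nt (297 exons), 23 were called lower and 22 higher by ψ, 20 and 24 were past 2-fold lower and higher in reads that fit neither isoform, and 5 and 10 passed the read test. With 500 nt (1437 exons) these counts were 122 and 103, 68 and 118, and 62 and 68. With at least 50 informative reads (552 exons), 25 and 43 were past 2-fold. With 1 exon per gene (496 exons), 28 were called lower and 29 higher by ψ. Bayes factors of 20 or more with differences of 0.2 or more left 28 and 30, and a minimum of 5 exclusion-only reads left 16 and 23. At 1.5-fold, 99 and 130 exons were past the fold. With reads divided by the factor of 9.94 described above, which leaves few reads, the read test left 0 lower and 0 higher exons. The median log2 ratio of reads that fit neither isoform, 0.07 as measured, reversed to -0.058 relative to the median of all tested exons, and 55 exons were then past 2-fold lower and 60 higher.

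No paired analysis was possible because each group has 1 value per exon, and leaving out a replicate was not run for the same reason. Intervals cover counting error or the authors' model only. Reads that run outside an event, overlapping genes and shared reads of overlapping exons limit single values, and ψ without exclusion-only reads rests on read placement alone.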
